A study of Rattus norvegicus with 30 samples.

Results

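Na+-K+-ATPase mRNA was examined in 30 mRNAseq libraries of rat kidney for 6 genes, the 3 beta subunits *Atp1b1*, *Atp1b2* and *Atp1b3* and the 3 FXYD regulators *Fxyd2*, *Fxyd4* and *Fxyd5*. The genes were taken by name as accessory subunits and regulators of the pump, and all 6 were found among the 32545 genes of the count table. All rats were male Sprague-Dawley (SD) rats, an outbred strain without an introduced allele or transgene, and the ages stated for other rats of the study are not tied in the sources used here to those sequenced. The renal cortex (Cx) and the outer medulla (OM) of the right kidney were sampled from 5 rats on a low salt diet with 0.4% NaCl (LS, replicates 1 to 5), from 5 rats after 14 d on a high salt diet with 4.0% NaCl (HS14, replicates 6 to 10) and from 5 rats after 21 d on the same diet (HS21, replicates 11 to 15), which gives 6 groups of 5 libraries. The samples are pieces of whole tissue with many cell types. Levels are given as CPM, the count of a gene in a library scaled to 1000000 counts with TMM (trimmed mean of M values) factors, and comparisons between genes as CPM per kilobase of the annotated gene length. A change is given as the log2 ratio of 2 groups from edgeR's quasi-likelihood test, and calls of raised or lowered genes rest on *P* values adjusted over all genes tested, with a threshold of 0.05.

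The Na+-K+-ATPase of the basolateral membrane exports Na+ and imports K+ at the cost of ATP, and it drives Na+ reabsorption along the whole nephron. The alpha subunit carries the catalytic and ion binding sites, and the glycosylated beta subunit is needed for its folding and its delivery to the membrane. FXYD proteins are small proteins with a single membrane span that bind the assembled pump and tune its affinity for Na+ and K+ in a tissue specific way. In the kidney the best known are the gamma subunit, encoded by *Fxyd2* and abundant in the proximal tubule and the thick ascending limb, and CHIF (corticosteroid hormone-induced factor), encoded by *Fxyd4* and found in the collecting duct. *Fxyd5* encodes dysadherin, which also affects cell adhesion and is found in many epithelia and in other cell types.

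In the annotation of the files (Rnor_6.0), *Atp1b1* (ENSRNOG00000002934) lies on chromosome 13 from 82737159 to 82758004, *Atp1b2* (ENSRNOG00000011227) on chromosome 10 from 56205625 to 56211891 and *Atp1b3* (ENSRNOG00000011501) on chromosome 8 from 104190032 to 104221342, all on the minus strand. *Fxyd2* (ENSRNOG00000016469) lies on the plus strand of chromosome 8 from 49710477 to 49716955, 7058 bases from the end of its paralog *Fxyd6*. *Fxyd4* (ENSRNOG00000014578) lies on the minus strand of chromosome 4 from 149984206 to 149988295. *Fxyd5* (ENSRNOG00000021062) lies on the minus strand of chromosome 1 from 89464860 to 89474252, in a row with *Fxyd7*, *Fxyd1* and *Fxyd3*, and only 349 bases separate it from *Fxyd7*. *Atp1b1* overlaps at its lower end with *Nme7* on the plus strand. The libraries were not strand-specific, so reads from that overlap cannot be assigned to a strand, and *Nme7* had a mean of 20.8 CPM over the 30 libraries. None of the other 5 members overlapped an annotated gene. The annotated length differed widely, from 258 bases for *Fxyd2* to 3009 bases for *Atp1b2*.

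RefSeq (build GRCr8) gives a promoter window, 250 bases before and 50 bases after the start of transcription, for 4 of the members, with 2 starts for *Fxyd5*. The windows of *Fxyd5* (its more upstream start, chr1:95404673-95404972), *Fxyd4* (chr4:152785996-152786295) and *Atp1b3* (chr8:105821102-105821401), all on the minus strand, are printed because these are the 3 members that were called as raised in Cx at HS21. Capitals mark every match on either strand to 5 motifs, namely TATAAA of core promoters, the binding motif CCAAT of the factor NF-Y, the Sp1 family motif GGGCGG, the Ets family motif GAGGAA, and AGAACA from the element bound by corticosteroid receptors. No 2 matches overlapped within these 3 windows.
Fxyd5: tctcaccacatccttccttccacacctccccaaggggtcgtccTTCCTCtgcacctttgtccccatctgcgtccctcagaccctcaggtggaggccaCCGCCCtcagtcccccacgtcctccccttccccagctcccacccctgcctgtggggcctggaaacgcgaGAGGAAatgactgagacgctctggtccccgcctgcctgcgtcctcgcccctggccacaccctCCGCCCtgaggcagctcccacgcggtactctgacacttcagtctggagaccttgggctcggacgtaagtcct
Fxyd4: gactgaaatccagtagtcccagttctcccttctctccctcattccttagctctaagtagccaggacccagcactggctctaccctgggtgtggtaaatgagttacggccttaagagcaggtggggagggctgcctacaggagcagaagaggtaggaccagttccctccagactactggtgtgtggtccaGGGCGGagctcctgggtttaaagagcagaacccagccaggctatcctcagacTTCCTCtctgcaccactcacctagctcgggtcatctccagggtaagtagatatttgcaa
Atp1b3: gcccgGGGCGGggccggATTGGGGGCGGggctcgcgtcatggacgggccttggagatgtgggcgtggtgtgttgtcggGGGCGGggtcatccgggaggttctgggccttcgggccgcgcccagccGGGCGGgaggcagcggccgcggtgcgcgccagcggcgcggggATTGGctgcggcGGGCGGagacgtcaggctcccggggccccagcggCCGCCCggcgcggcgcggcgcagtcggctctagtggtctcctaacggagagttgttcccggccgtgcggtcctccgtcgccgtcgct
The *Atp1b3* window was rich in G and C (77.7%) with 46 CpG pairs, against medians of 51.7% and 7 pairs over the 33469 promoter windows of the same length. It held 6 matches to GGGCGG and 2 to CCAAT, motifs that 33.1% and 37.5% of all windows hold. The *Fxyd4* window had 54.7% G and C with 3 CpG pairs, 1 match to GGGCGG and 1 to GAGGAA. The *Fxyd5* window had 65.3% G and C with 15 CpG pairs, and held 2 matches to GGGCGG and 2 to GAGGAA, the latter found in 27.6% of all windows. None of the 3 windows matched TATAAA or AGAACA, which occur in 14.2% and 20.7% of all windows. The letters of these windows differ among members that were raised together, and a match is a description of the sequence and not a site.

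Between 5408126 and 21842843 counts on genes were obtained per library, and the lowest total, of OM HS14 replicate 10, was far under the next lowest of 12748841. The tissue labels were borne out by markers, since the thick ascending limb markers summed to 10290 to 21990 CPM in the OM and to 1275 to 2946 CPM in Cx, and proximal tubule markers to 13570 to 31400 CPM in Cx and 658 to 15070 CPM in the OM. The highest of these OM values, 15070 CPM, came from OM LS replicate 2, which also had the lowest thick ascending limb sum of the OM, while the medians of the proximal sums in the OM were 5073 CPM on LS, 4688 CPM at HS14 and 4735 CPM at HS21. OM HS14 replicate 10 also stood apart in gene length. Its genes under 500 bases lay at a median log2 difference of −1.99 from the other 4 libraries of its group and its genes from 500 to under 1000 bases at −1.54, whereas its genes of 4000 bases and over lay at 0.61. In the 25 libraries of the other groups the same medians stayed between −0.17 and 0.22 for genes under 500 bases and between −0.12 and 0.15 for those of 4000 bases and over. The other 4 libraries of its own group lay between 0.33 (replicate 9) and 0.74 (replicate 7) for genes under 500 bases. Replicate 10 was among the libraries they were compared with, and its part in these values was not tested.

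This library bears on the FXYD genes most. *Fxyd2* was at 345 CPM there against 1432 to 2000 CPM in the other 4 libraries, *Fxyd4* at 9.29 against 38.9 to 88.7 CPM and *Fxyd5* at 5.36 against 13.3 to 20.1 CPM. The log2 differences were −2.33, −2.61 and −1.61. The beta subunits, whose genes are longer, deviated less, with −0.27 for *Atp1b1*, −0.34 for *Atp1b3* and −0.59 for *Atp1b2*. *Fxyd2* and *Fxyd5* thus lay near the median of their length class, while *Fxyd4* lay below that of its class (−0.72 for genes from 1000 to under 2000 bases). The part of RNA quality in these values was not tested, and results at HS14 in the OM are given with and without this library.

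**Figure D1:**
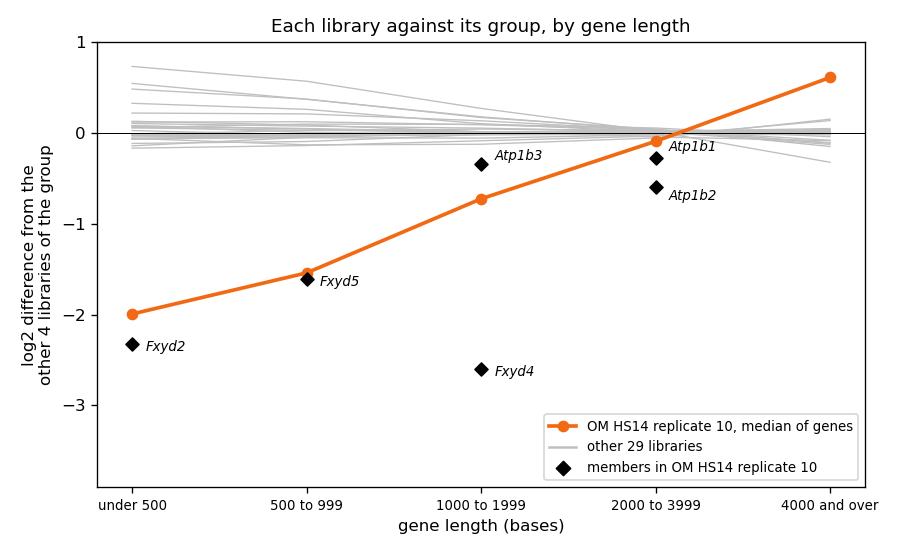
Median log2 difference of each library from the other 4 libraries of its group, by class of gene length in bases, with OM HS14 replicate 10 as the thick line, the other 29 libraries in grey and the 6 members in that library as diamonds. The thick line runs from −1.99 for genes under 500 bases to 0.61 for genes of 4000 bases and over, and *Fxyd2*, *Fxyd4* and *Fxyd5* lie at −2.33, −2.61 and −1.61.

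The members differed by orders of magnitude in level. Per kilobase, *Fxyd2* was the most abundant in Cx on LS with 4330 ± 210 CPM per kilobase (SD, n = 5), a value that rests on its very short annotated length. *Atp1b1*, the main renal beta subunit, followed with 1382 ± 110 CPM per kilobase (SD, n = 5). *Atp1b3* was at 56.1 ± 3.74, *Fxyd5* at 7.22 ± 1.04, *Fxyd4* at 5.41 ± 1.30 and *Atp1b2* at 3.57 ± 0.649 CPM per kilobase (SD, n = 5 each). The ranges of *Fxyd5* and *Fxyd4* overlapped over the 5 rats and those of *Fxyd2*, *Atp1b1* and *Atp1b3* lay apart from each other. In the OM on LS the order was the same down to *Atp1b3*, at 101 ± 15.3 CPM per kilobase (SD, n = 5), but *Fxyd4* came next with 39.5 ± 26.3, ahead of *Fxyd5* with 9.54 ± 3.65 and *Atp1b2* with 4.99 ± 1.51 CPM per kilobase (SD, n = 5 each).

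**Figure D2:**
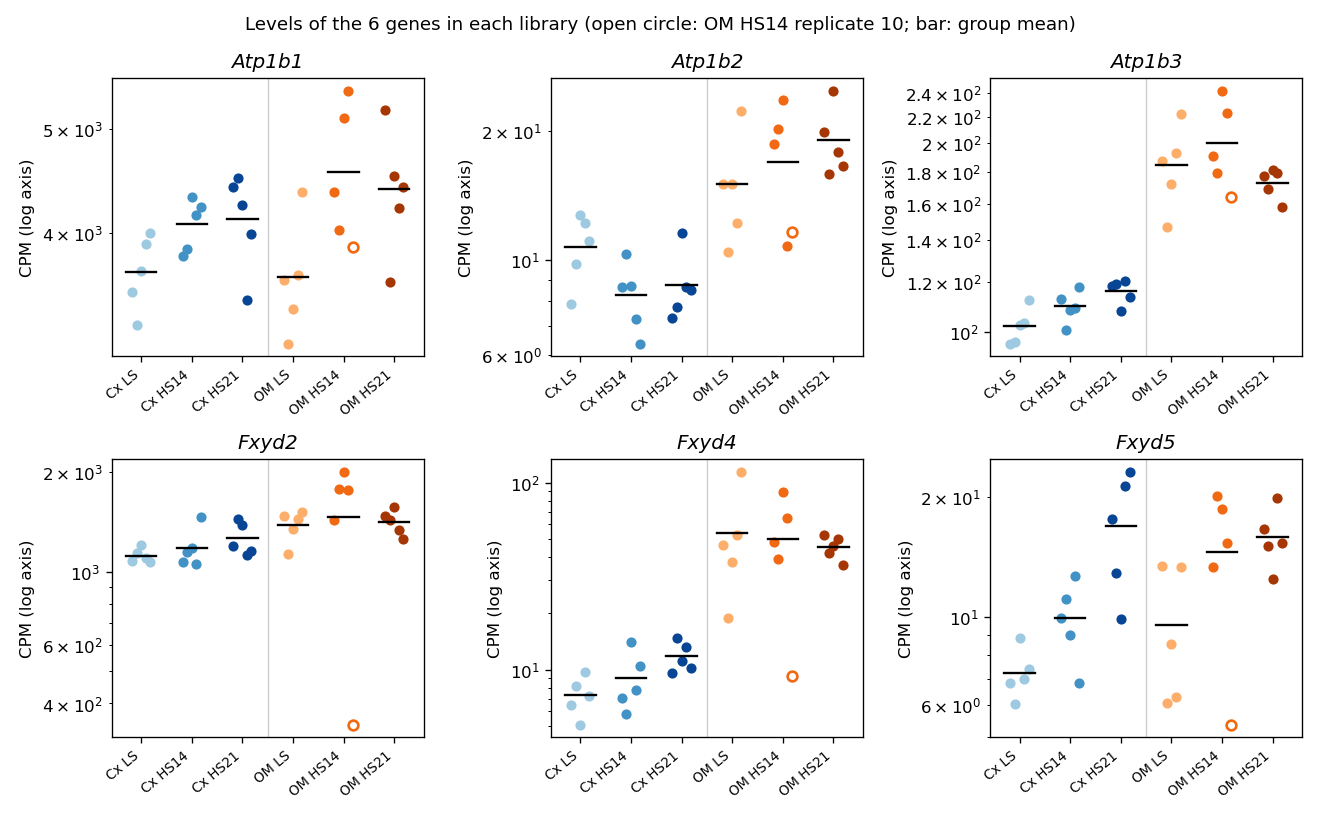
CPM of the 6 members on a logarithmic axis in each of the 30 libraries by tissue and diet group, with a bar at the group mean and an open circle for OM HS14 replicate 10. *Fxyd5* rises from 6.04 to 8.87 CPM in Cx LS to 9.88 to 23.1 CPM in Cx HS21, *Fxyd4* and *Atp1b3* are higher in each OM LS library than in any Cx LS library, and the open circle is the lowest of its group for *Atp1b1*, *Atp1b3* and the 3 FXYD genes.

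The OM was compared with Cx on LS to see where along the kidney each gene is used. *Fxyd4*, *Atp1b3* and *Fxyd2* were higher in the OM, and the other 3 members were not called. *Fxyd4* was expressed at 6.50, 8.23, 5.09, 9.78 and 7.26 CPM in Cx replicates 1 to 5 and at 46.4, 18.9, 37.8, 52.2 and 113.9 CPM in OM replicates 1 to 5. Every OM library lay above every Cx library, and the OM libraries spread widely, from replicate 2 at the bottom to replicate 5 at the top. The log2 ratio was 2.86 (SE 0.42, edgeR adjusted *P* = 0.000442), a 7.24-fold higher level. *Atp1b3* was at 95.7, 96.2, 102, 103 and 113 CPM in Cx and at 187, 147, 172, 193 and 223 CPM in the OM. Here too no OM library overlapped with Cx, and the log2 ratio was 0.85 (SE 0.10, edgeR adjusted *P* = 0.000142). *Fxyd2* was at 1067 to 1201 CPM (median 1102) in Cx and at 1134 to 1513 CPM (median 1438) in the OM. The groups overlapped through OM replicate 2 alone, since the other 4 OM libraries lay above all Cx libraries, and the log2 ratio was 0.30 (SE 0.10, edgeR adjusted *P* = 0.0341).

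These 3 calls of 6 compare with 40.9% of the 14295 genes tested that were called between the tissues. Of all genes tested, 21.3% were raised in the OM. *Fxyd4* and *Atp1b3* were called in all 10 fits that left out 1 library. *Fxyd2* was called in only 1 of them, the fit without OM replicate 2 (log2 ratio 0.35, adjusted *P* = 0.00254), and it was not called with the replicate number as a block (0.29, edgeR adjusted *P* = 0.112). *Atp1b2*, at 7.88 to 12.7 CPM in Cx and 10.4 to 22.4 CPM in the OM, had a log2 ratio of 0.48 (SE 0.20, edgeR adjusted *P* = 0.0854) and was called without OM replicate 2 (0.57, adjusted *P* = 0.0278), by limma voom (0.40, adjusted *P* = 0.0405) and with total counts in place of TMM (0.74, adjusted *P* = 0.0275). The same settings called 51.9%, 54.9% and 51.7% of all genes, in that order. *Fxyd5* was at 0.39 (95% interval −0.15 to 0.94). *Atp1b1* differed little, with 3284 to 4004 CPM in Cx and 3156 to 4372 CPM in the OM, a log2 ratio of −0.02 and a 95% interval of −0.29 to 0.24, and with total counts in place of TMM its ratio turned to 0.23.

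In OM LS, the libraries lowest and highest in *Fxyd4* were also lowest and highest in markers of the principal cell. This is the collecting duct cell that takes up Na+ and water. The 6 markers summed to 450 CPM in OM LS replicate 2 and to 2380 CPM in replicate 5, the lowest and the highest of the OM, where *Fxyd4* was at 18.9 and 113.9 CPM. Over the other 3 libraries of OM LS they summed to 1033 to 1182 CPM. In OM HS14, replicate 10 was lowest in *Fxyd4* (9.29 CPM) but not in the sum, with 906 CPM against 734 CPM in replicate 7. In Cx on LS the markers summed to 361 to 453 CPM, and 3 of the 6 were raised in the OM against Cx, with a median log2 ratio of 1.38 over the 6 (0.03 over all genes). Leading these were *Aqp4* at 3.44 (SE 0.48, adjusted *P* = 0.000306), the water channel *Aqp2* at 2.17 (SE 0.36, adjusted *P* = 0.000898) and the vasopressin receptor *Avpr2* at 1.75 (SE 0.29, adjusted *P* = 0.000963). The part of the collecting duct share of each sample in the level of *Fxyd4* was not tested.

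Of the 7 tested genes of a list of 12 further pump family genes, 3 were raised in the OM on LS and none lowered (median log2 ratio 0.56). Among the raised, *Fxyd6*, an FXYD regulator that lies beside *Fxyd2*, rose by 1.68 (SE 0.15, edgeR adjusted *P* = 2.48e-05), and the scarce catalytic subunit *Atp1a4* by 2.83 (SE 0.68, edgeR adjusted *P* = 0.00737). Of 11 tested genes of a list of 13 that act on the pump, 6 were raised and 3 lowered (median 0.35). Among the raised were the osmotic stress factor *Nfat5* at 1.81, *Nkain4* at 1.18, *Sik1* at 1.08, *Nr3c2* at 0.79 and the ubiquitin ligase *Nedd4l* at 0.35. *Nkain4* was scarce, with means of 0.477 CPM in Cx LS and 1.1 CPM in OM LS. Lowered were *Pcbd1* at −1.68, *Nkain1* at −1.57 and *Ank3* at −0.72.

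The question for each HS group was whether the pump's accessory genes changed against LS in the same tissue. In Cx at HS14, edgeR called 0 of the 6 members, where 2.33% of 14181 genes were called. DESeq2 and limma voom also called 0. At an unadjusted edgeR *P* under 0.05, 2462 of all 14181 genes passed, and 2 members did. These were *Fxyd5*, at 9.94, 11.1, 9.02, 12.7 and 6.83 CPM in replicates 6 to 10, and *Atp1b2*. For *Fxyd5* all HS14 libraries except replicate 10 lay above the LS range of 6.04 to 8.87 CPM, and the log2 ratio was 0.45 (SE 0.17, edgeR adjusted *P* = 0.183). *Atp1b2* was at 6.37 to 10.3 CPM (median 8.64) against 7.88 to 12.7 CPM (median 11.1) on LS, a log2 ratio of −0.39 (SE 0.16, edgeR adjusted *P* = 0.235). The 95% intervals were −0.01 to 0.29 for *Atp1b1*, −0.03 to 0.23 for *Atp1b3*, −0.12 to 0.27 for *Fxyd2* and −0.24 to 0.82 for *Fxyd4*. They exclude a doubling of any of these 4 genes at this time, in these libraries.

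In Cx at HS21, *Fxyd5*, *Fxyd4* and *Atp1b3* were raised, by 1.23, 0.68 and 0.18 on the log2 scale, and no member was lowered. *Fxyd5* was expressed at 6.81, 6.04, 8.87, 6.98 and 7.39 CPM on LS and at 17.6, 12.9, 9.88, 21.3 and 23.1 CPM in replicates 11 to 15. Every HS21 library lay above every LS library, with replicate 13 nearest to the LS range and replicates 14 and 15 farthest from it. The means were 16.9 ± 5.54 CPM at HS21 and 7.22 ± 1.04 CPM on LS (SD, n = 5 each), and the log2 ratio was 1.23 (SE 0.22, edgeR adjusted *P* = 0.0011). In whole tissue, a change in the number of cells of a type and a change in RNA per cell cannot be told apart, and this holds for each change described here.

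*Fxyd4* was at 9.66, 14.7, 11.2, 13.3 and 10.2 CPM in replicates 11 to 15, against the 5.09 to 9.78 CPM on LS given above. All but replicate 11 lay above the LS range, and that library fell just within it. The log2 ratio was 0.68 (SE 0.18, edgeR adjusted *P* = 0.011). *Atp1b3* was at 118, 119, 108, 121 and 114 CPM at HS21 against 95.7 to 113 CPM on LS, with replicate 13 within the LS range, and its log2 ratio was 0.18 (SE 0.05, edgeR adjusted *P* = 0.019). The change of *Atp1b3* was small but its spread was small too, with a coefficient of variation of 4.44% at HS21 and 6.67% on LS.

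The other 3 members were not called. *Atp1b1* was at 4417, 4503, 4249, 3467 and 3994 CPM at HS21 and at 3522, 3284, 3691, 3909 and 4004 CPM on LS. Replicates 11, 12 and 13 lay above the LS range and the other 2 within it, and the log2 ratio was 0.16 (95% interval −0.02 to 0.34, edgeR adjusted *P* = 0.143). *Fxyd2* was at 1124 to 1441 CPM (median 1198) at HS21 and 1067 to 1201 CPM (median 1102) on LS, with a log2 ratio of 0.17 (95% interval 0.004 to 0.34, edgeR adjusted *P* = 0.096). *Atp1b2* was at 7.31 to 11.5 CPM (median 8.50), and its log2 ratio was −0.30 (95% interval −0.64 to 0.05, edgeR adjusted *P* = 0.161). It was the only member with a ratio below 0 in both HS groups of Cx. Without replicate 13 of HS21 *Atp1b2* was called as lowered (−0.42, adjusted *P* = 0.0424). Without replicate 14 both *Atp1b1* (0.23, adjusted *P* = 0.0261) and *Fxyd2* (0.22, adjusted *P* = 0.0357) were called as raised, and *Fxyd2* also without replicate 15 (0.21, adjusted *P* = 0.0488). Under 3 of the 7 other processing settings *Fxyd2* was called as well, by DESeq2 (0.18, adjusted *P* = 0.0394), with upper quartile scaling (0.21, edgeR adjusted *P* = 0.0489) and with total counts (0.30, edgeR adjusted *P* = 0.00608), the last of which also called *Atp1b1* (0.29, adjusted *P* = 0.0134).

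Of all 14299 genes tested in Cx at HS21, 39.4% were called and 18.9% were raised, against which the 3 raised members of 6 are to be read. The median log2 ratio of the 6 members was 0.18 and that of all genes 0.005. *Fxyd5* was called in all 10 fits without 1 library, with adjusted *P* of at most 0.004005, and under each of 7 other processing settings, with adjusted *P* of at most 0.00363. *Fxyd4* lost its call in a single fit of all 30 libraries (0.68, adjusted *P* = 0.274). *Atp1b3* lost it there (0.19, adjusted *P* = 0.216) and without LS replicate 1 (0.16, adjusted *P* = 0.0525) or LS replicate 2 (0.16, adjusted *P* = 0.0519).

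**Figure D3:**
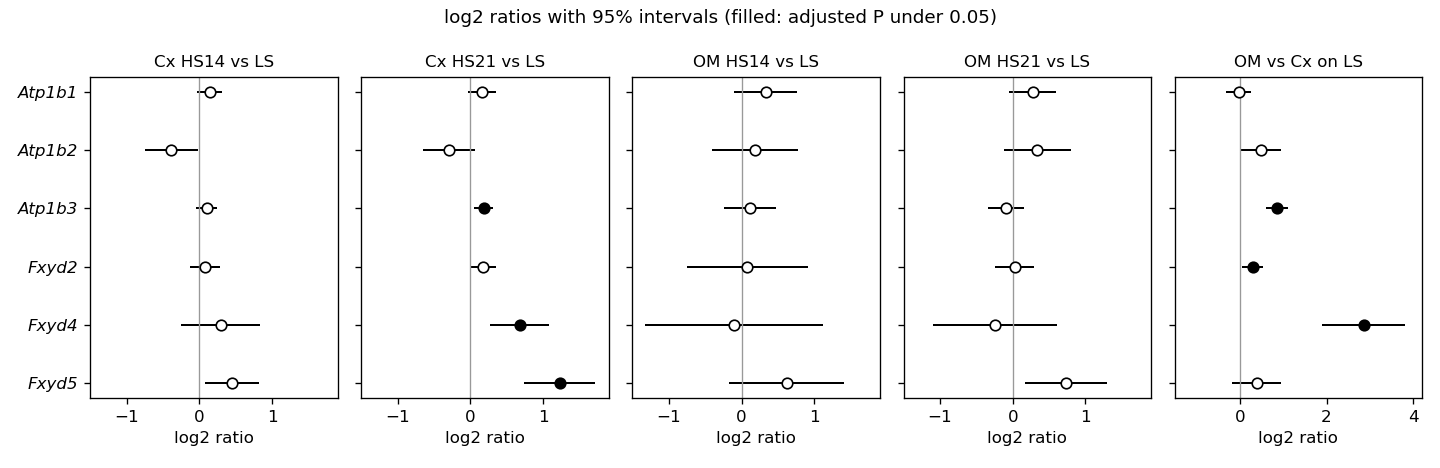
log2 ratio of each member with its 95% interval from edgeR in the 4 comparisons with LS and between the tissues on LS, with filled circles for an adjusted *P* under 0.05. The filled circles are *Atp1b3*, *Fxyd4* and *Fxyd5* in Cx at HS21 and *Atp1b3*, *Fxyd2* and *Fxyd4* between the tissues, and the axis of the last panel is wider than that of the others.

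Markers of other cell types moved with these members in Cx at HS21. All 7 tested leukocyte markers of 8 listed were raised, with a median log2 ratio of 1.80, and their summed level was 127 to 181 CPM on LS, 184 to 265 CPM at HS14 and 246 to 723 CPM at HS21. *Cd53*, *Laptm5*, *Ptprc* and *Coro1a* led them, at log2 ratios of 2.07, 1.91, 1.86 and 1.80. Within HS21, replicate 13 had the lowest sum (246 CPM) and the lowest *Fxyd5*, and replicates 14 and 15 had the highest sums (561 and 723 CPM) and the highest *Fxyd5*. At HS14, replicate 10 was lowest in both, with 184 CPM of leukocyte markers and 6.83 CPM of *Fxyd5*. The LS libraries did not follow this order. Replicate 1 had the highest sum of LS (181 CPM) at 6.81 CPM of *Fxyd5*, and replicate 5 the lowest sum (127 CPM) at 7.39 CPM. Of the 7 tubular injury markers 6 were raised (median 1.18), and their sum ran from 368 to 563 CPM on LS and from 647 to 1404 CPM at HS21, with replicate 13 lowest and replicate 14 highest. *Lcn2*, *Spp1*, *Vim* and *Vcam1* led those called, at 2.91, 1.70, 1.18 and 1.13. The part of these cells and of injured tubules in the change of *Fxyd5* was not tested.

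**Figure D4:**
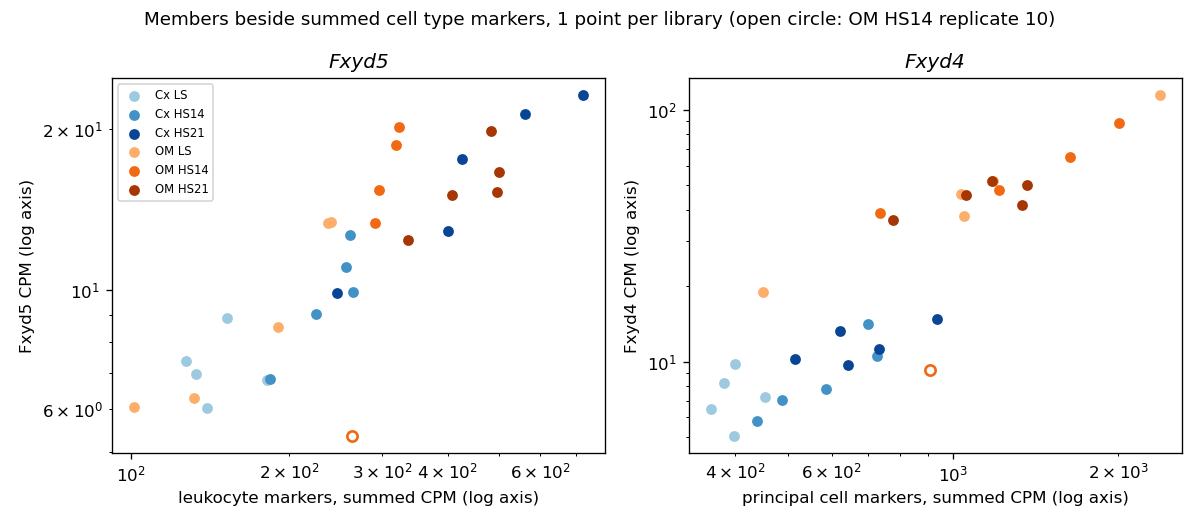
*Fxyd5* against the summed CPM of the leukocyte markers (left) and *Fxyd4* against that of the principal cell markers (right), with logarithmic axes, 1 point per library coloured by group and an open circle for OM HS14 replicate 10. In Cx HS21 *Fxyd5* runs from 9.88 CPM at 246 CPM of markers to 23.1 CPM at 723 CPM, *Fxyd4* in OM LS runs from 18.9 CPM at 450 CPM of markers to 113.9 CPM at 2380 CPM, and OM HS14 replicate 10 falls below the other OM libraries in both panels.

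Markers of the distal nephron moved with *Fxyd4*. Of the 6 principal cell markers 5 were raised in Cx at HS21 (median 0.93), led by *Aqp2* at 1.11, the Na+ channel subunits *Scnn1b* at 0.98 and *Scnn1g* at 0.94, and *Aqp4* at 0.91. Their sum was 361 to 453 CPM on LS and 514 to 934 CPM at HS21, and replicate 12 was highest in the sum and in *Fxyd4*. The other libraries did not follow one order, since replicate 14 was second in *Fxyd4* (13.3 CPM) but second lowest in the sum (623 CPM), and replicate 11, lowest in *Fxyd4* (9.66 CPM), was in the middle of the sums (643 CPM). All 6 intercalated cell markers (median 0.71), all 4 tested distal convoluted tubule markers of 5 listed (median 0.79) and 4 of 6 thick ascending limb markers (median 0.51) were also raised. By contrast all 10 proximal tubule markers were lowered, with a median of −0.88, where 20.5% of all genes were lowered. *Gatm*, *Slc5a12*, *Lrp2* and *Cubn* led them, at −1.49, −1.03, −0.99 and −0.96. *Fxyd2* and *Atp1b1* had ratios of 0.17 and 0.16 and were not called. Endothelial markers (3 of 7 raised, median 0.27) and fibroblast markers (1 of 6 raised, median −0.06) moved less. The part of a shift between segments in the ratios of *Fxyd4*, *Fxyd2* and *Atp1b1* was not tested.

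The list of 12 further family genes holds other subunits, FXYD genes and the related H+-K+-ATPase genes, and 8 were tested in Cx at HS21. Among them 2 were raised and 1 lowered, with a median log2 ratio of 0.27. *Fxyd6*, the neighbour of *Fxyd2*, rose by 0.73 (SE 0.16, edgeR adjusted *P* = 0.00371), from 80.5 ± 4.53 to 133.9 ± 36.8 CPM (SD, n = 5 each). *Atp1b4*, a further member of the beta subunit family, fell by 0.79 on the log2 scale (SE 0.28, edgeR adjusted *P* = 0.0419). It was scarce in Cx, with means of 1.09 CPM on LS and 0.625 CPM at HS21. *Fxyd1*, which encodes phospholemman, was not called (0.63, SE 0.25, edgeR adjusted *P* = 0.0622).

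Of the 13 genes that act on the pump's abundance or transcription, 11 were tested in Cx at HS21, and 4 were raised and 4 lowered (median 0.14). Raised were *Nr3c2*, the mineralocorticoid receptor, at 0.79 (SE 0.16, edgeR adjusted *P* = 0.00205), *Hsd11b2*, the enzyme that keeps glucocorticoids from that receptor, at 0.80 (SE 0.15, edgeR adjusted *P* = 0.00142), the kinase *Sik1* at 0.84 (SE 0.27, edgeR adjusted *P* = 0.028) and the beta subunit interacting *Nkain4* at 1.74 (SE 0.40, edgeR adjusted *P* = 0.00482). *Nkain4* was scarce in Cx, with means of 0.477 CPM on LS, 0.495 CPM at HS14 and 1.63 CPM at HS21. Among the lowered were the transcriptional cofactor *Pcbd1* at −0.42 (SE 0.07, edgeR adjusted *P* = 0.000593), *Ank3*, which encodes the ankyrin that ties the pump to the cytoskeleton, at −0.53 (SE 0.10, edgeR adjusted *P* = 0.00185) and *Nkain1* at −0.93 (SE 0.23, edgeR adjusted *P* = 0.00791). *Nkain1* was low too, with means of 3.83 CPM on LS and 2 CPM at HS21. In Cx at HS14, 0 of 7 tested family genes and 0 of 10 tested regulatory genes were called.

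Between the HS groups of Cx, *Fxyd5* was the 1 member called of 6, with a log2 ratio of HS21 to HS14 of 0.78 (SE 0.23, edgeR adjusted *P* = 0.0436), where 16.2% of 14395 genes were called and 6.5% raised. Replicates 11, 12, 14 and 15 of HS21 lay above the HS14 range of 6.83 to 12.7 CPM and replicate 13 within it. The call held without HS21 replicate 12 (0.86, adjusted *P* = 0.0431) or replicate 13 (0.92, adjusted *P* = 0.0127) and was lost without any of the other 8 libraries, with adjusted *P* up to 0.101. *Fxyd4* was at 0.39 (95% interval −0.11 to 0.88) and *Atp1b3* at 0.08 (95% interval −0.04 to 0.21), so the size of any further change after day 14 was poorly bounded for *Fxyd4*. This comparison shares its HS libraries with those against LS. Of the further family genes 0 of 7 were called by edgeR, and of the regulatory genes *Nkain4* rose (1.70, SE 0.38, edgeR adjusted *P* = 0.0152), 1 of 11.

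In the OM at HS14, edgeR, DESeq2 and limma voom each called 0 of the 6 members, and edgeR called 0.00694% of 14417 genes. At an unadjusted edgeR *P* under 0.05, 0 members and 826 of all genes passed. *Fxyd5* was at 13.3, 20.1, 18.7, 15.3 and 5.36 CPM in replicates 6 to 10 and at 13.4, 6.07, 8.53, 6.29 and 13.3 CPM on LS. Replicate 10 was the lowest of all 10 libraries, 3 of the other 4 HS14 libraries lay above the LS range, and the log2 ratio was 0.62 (SE 0.35, edgeR adjusted *P* = 0.994). Without replicate 10 it was 0.82 (SE 0.28, edgeR adjusted *P* = 0.392). *Fxyd2* moved from 0.08 to 0.33 (SE 0.14) and *Fxyd4* from −0.10 to 0.16 (SE 0.45) when replicate 10 was left out. The direction of *Fxyd4* rested on single libraries, since it was 0.36 (SE 0.52) without OM LS replicate 5, −0.32 (SE 0.53) without OM LS replicate 2 and −0.06 (SE 0.38) without both OM LS replicate 2 and replicate 10. *Atp1b1* was at 4363, 4029, 5116, 5422 and 3884 CPM against 3614, 3156, 3398, 3657 and 4372 CPM on LS, a log2 ratio of 0.33 (95% interval −0.09 to 0.75) with replicate 10 and 0.38 (SE 0.16) without it.

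In the OM at HS21, edgeR and DESeq2 called 0 of the 6 members, limma voom called 1, *Fxyd5*, and 0.769% of 14555 genes were called by edgeR and 16.4% by limma voom. *Fxyd5* was at 16.6, 15.1, 12.4, 19.8 and 15.3 CPM in replicates 11 to 15. All but replicate 13 lay above the LS range of 6.07 to 13.4 CPM, and the log2 ratio was 0.73 (SE 0.25, edgeR adjusted *P* = 0.248). It was the only member that passed at an unadjusted edgeR *P* under 0.05, as 1637 of all 14555 genes did. By limma voom with quality weights the ratio of *Fxyd5* was 0.88 (adjusted *P* = 0.0213). Leukocyte markers moved with it here too. Of the 7 tested 4 were raised, *Ptprc* at 1.70, *Cd53* at 1.55, *Coro1a* at 1.43 and *Itgb2* at 1.22, and the sum was 101 to 240 CPM on LS and 335 to 499 CPM at HS21. Replicate 13 was lowest in the sum and in *Fxyd5*. *Fxyd4* was at 36.4 to 52.3 CPM (median 45.9) against 18.9 to 113.9 CPM (median 46.4) on LS, with a log2 ratio of −0.24 (95% interval −1.08 to 0.59) that became 0.21 without LS replicate 5. The direction of *Fxyd4* in the OM therefore hung on a single library. *Atp1b1* was at 5211, 3599, 4521, 4224 and 4410 CPM, with a log2 ratio of 0.27 (95% interval −0.04 to 0.59). *Atp1b3* was at −0.09 (95% interval −0.33 to 0.14), *Fxyd2* at 0.03 (95% interval −0.22 to 0.29) and *Atp1b2* at 0.34 (95% interval −0.10 to 0.78). No gene of the further family or regulatory lists was called in the OM at either time (8 and 11 tested).

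From HS14 to HS21 in the OM, edgeR called 0 members and 0% of 14499 genes (547 genes at an unadjusted *P* under 0.05), DESeq2 and limma voom called 0 members, and no member passed at an unadjusted *P* under 0.05. Without HS14 replicate 10 the ratio of *Fxyd2* went from −0.05 to −0.30 and that of *Fxyd5* from 0.11 to −0.08.

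An interaction term of tissue and diet, fitted over the 20 libraries of LS and HS21, asked whether the change at HS21 was unequal in Cx and OM. edgeR and DESeq2 called 0 of the 6 members, and edgeR called 0.665% of 15194 genes. *Atp1b2* and *Atp1b3* passed at an unadjusted edgeR *P* under 0.05, as did 2367 of all genes. *Atp1b2*, whose ratio was −0.30 in Cx and 0.34 in the OM, had an interaction of 0.63 (SE 0.27, edgeR adjusted *P* = 0.267). *Atp1b3*, with 0.18 in Cx and −0.09 in the OM, had an interaction of −0.28 (SE 0.12, edgeR adjusted *P* = 0.277). Both were called by limma voom with quality weights (adjusted *P* = 0.0283 and 0.0319), which called 19.3% of all genes in this test. *Fxyd4* had an interaction of −0.93 (SE 0.45, edgeR adjusted *P* = 0.326) and *Fxyd5*, raised in Cx but not called in the OM, had −0.50 (95% interval −1.22 to 0.22), so that a difference between the tissues was not shown for it.

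The make-up of the beta subunits followed the tissue. Per length, *Atp1b1* made up 95.9 ± 0.154% of the 3 beta subunit mRNAs in Cx LS and 92.8 ± 0.319% in OM LS, and *Atp1b2* 0.247 ± 0.0382% and 0.334 ± 0.0626% (SD, n = 5 each). *Atp1b3* made up 3.71 to 4.10% in Cx LS and 6.37 to 7.15% in OM LS. In Cx at HS21 the shares were close to those on LS, with 95.8 ± 0.514% *Atp1b1* at HS21. In the OM the share of *Atp1b3* was 6.01 ± 0.296% at HS14 and 5.49 ± 0.674% at HS21 (SD, n = 5 each). The ratio of *Atp1b3* to *Atp1b1* was 0.0683 to 0.0772 in OM LS, 0.0603 to 0.0693 at HS14 and 0.0498 to 0.0688 at HS21. Only OM LS replicate 2, at 0.0683, lay within the range of the HS libraries. OM HS14 replicate 10 was not extreme in this ratio. It is a description without a test, and the ratio moved with *Atp1b1*, whose mean was higher at HS14 and HS21 than on LS in the OM, as well as with *Atp1b3*.

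**Figure D5:**
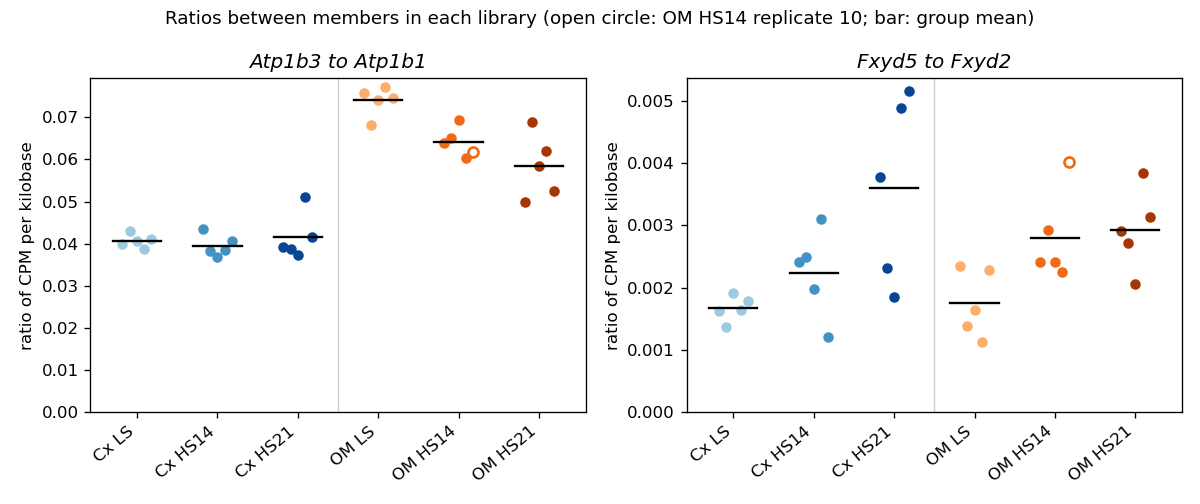
Ratio of *Atp1b3* to *Atp1b1* (left) and of *Fxyd5* to *Fxyd2* (right), each from CPM per kilobase, in the 30 libraries by group, with a bar at the group mean and an open circle for OM HS14 replicate 10. The left ratio is 0.0386 to 0.0429 in Cx LS and 0.0683 to 0.0772 in OM LS, and the right ratio is 0.00137 to 0.00191 in Cx LS and 0.00184 to 0.00516 in Cx HS21.

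Among the 3 FXYD genes, *Fxyd2* made up from 98.4% per length, in OM LS replicate 5, to 99.7%, in Cx HS14. *Fxyd5* made up 0.166 ± 0.0201% in Cx LS and 0.358 ± 0.148% in Cx HS21, and *Fxyd4* 0.125 ± 0.032% and 0.177 ± 0.0302% (SD, n = 5 each). In OM LS *Fxyd4* made up 0.703 ± 0.413% (SD, n = 5). The raised FXYD genes of Cx thus remained minor mRNAs beside *Fxyd2*, whose short annotated length enlarges its share on this scale. On counts alone *Fxyd5* to *Fxyd2* was 0.00645 ± 0.000779 in Cx LS and 0.0139 ± 0.00577 in Cx HS21 (SD, n = 5 each).

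The genes whose pattern was most like that of each member were sought among the 9733 candidates that code for protein and averaged 10 CPM or more, by Pearson's *r* of log2 CPM over the 30 libraries after subtracting the mean of each tissue. The points share their library and its depth, and the values are descriptions. For *Fxyd5* these were *Gnai2* (*r* = 0.931, Spearman's rho 0.901), *Ifitm1* (*r* = 0.929, rho 0.927) and *Tmem176a* (*r* = 0.920, rho 0.913), and without the 2 libraries farthest from the median of the other gene, an alternative added after the data were seen, *r* was 0.915, 0.914 and 0.898. For *Atp1b3* they were *Dll4* (*r* = 0.860, rho 0.838), *Stard5* (*r* = 0.857, rho 0.708) and *Ackr3* (*r* = 0.850, rho 0.716). For *Atp1b1* they were *Sec14l1* (*r* = 0.823, rho 0.757), *Ctsc* (*r* = 0.814, rho 0.796) and *Got1* (*r* = 0.809, rho 0.730), and for *Atp1b2* the values were lower, with *Rgs5* (*r* = 0.698, rho 0.681), *Ptgr1* (*r* = 0.696, rho 0.681) and *Rbm22* (*r* = 0.685, rho 0.666). Without subtraction of the tissue means the first genes were *Ifitm1* for *Fxyd5* (*r* = 0.932), *Crip2* for *Fxyd4* (*r* = 0.953), *Prdx5* for *Fxyd2* (*r* = 0.947), *Mrps6* for *Atp1b3* (*r* = 0.971), *Sec14l1* for *Atp1b1* (*r* = 0.823) and *Rgs5* for *Atp1b2* (*r* = 0.892), values that also hold the difference between the tissues.

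For *Fxyd2* and *Fxyd4* the likeness rested in part on OM HS14 replicate 10. *Fxyd2* was most like *Cox7b* (*r* = 0.9746, rho 0.832), *Prdx5* (*r* = 0.971, rho 0.824) and *Cox6b1* (*r* = 0.965, rho 0.817), and without that library *r* fell to 0.876, 0.874 and 0.837. *Fxyd4* was most like *Hnrnph1* (*r* = 0.881, rho 0.784), *S100a1* (*r* = 0.876, rho 0.780) and *Cd320* (*r* = 0.860, rho 0.730), and without the library *r* was 0.799, 0.791 and 0.768. Over the other 29 libraries, a choice made after the values were seen, *Fxyd4* was most like *Aqp2* (*r* = 0.862, rho 0.823), *Gprc5b* (*r* = 0.852) and *L1cam* (*r* = 0.845). Most like *Fxyd5* was *Spi1* (*r* = 0.945, rho 0.944), a transcription factor of the myeloid and B cell lineages, before *Tgfb1* (*r* = 0.940) and *Gnai2* (*r* = 0.924). *Fxyd2* was still most like *Prdx5* (*r* = 0.858) and *Cox7b* (*r* = 0.856). Among the members themselves, *Fxyd2* and *Fxyd4* had *r* = 0.838 over the 15 OM libraries and 0.489 over the 15 Cx libraries, and *Atp1b3* and *Fxyd4* had 0.780 and 0.598.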

How the data were processed

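RNA from the Cx and the OM of the right kidney was poly(A)-selected and sequenced from non-directional libraries. Clean read pairs were aligned by the authors to Rnor_6.0 and counted per gene. The submitters' processing notes name HISAT2 2.0.5, StringTie 1.3.3b and featureCounts 1.5.0-p3. Raw counts per gene, as deposited by the authors, entered every fit unchanged. The gene length deposited by the authors, in bases, was used for levels per kilobase. Other deposited columns hold FPKM values and the authors' own comparisons (group means, fold changes and p-values) and were not used here.

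Samples were grouped by their labels. By the study's methods the collected kidneys were cut into Cx and OM, but no label says that equal replicate numbers in Cx and OM are 1 rat. The main fits between tissues had no block and so treated their libraries as independent, with a replicate block as an alternative. In 60 pairs of libraries of a group none was a copy of another, since the chi-square per gene was at least 7.30. The 6 members and all gene lists were chosen with earlier results of these data known.

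For each comparison, edgeR 4.0.16 (R 4.3.3) was run on its own libraries alone, after filterByExpr with the group and TMM scaling, with the quasi-likelihood F-test and no covariate. The Benjamini-Hochberg adjustment covered all tested genes, with calls at 0.05. That test gives no SE, so the SE of an edgeR ratio is its absolute log2 ratio divided by the square root of the F statistic. Intervals are 95% intervals from this SE and the degrees of freedom of that fit. log2 CPM used a prior count of 2. The interaction was fitted over the LS and HS21 libraries of both tissues. All 6 members passed the filter in each of the comparisons. The script was tested on simulated counts with known changes.

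The text counts calls over all 6 members in each comparison, but it does not give the ratio of every member in each. It names the called genes of the pump family and regulation lists, apart from those left out as stated below. Also named are at most 4 called genes of the largest absolute ratio in a marker list, and up to 3 genes most alike by Pearson's *r*. Alternatives were RLE, total count and upper quartile scaling, no filter, DESeq2 1.42.0, limma 3.58.1 voom with quality weights, a single fit of 30 libraries, a replicate block, and fits without each library in turn. Means are given with SD over rats, which holds rat differences and counting error. The lowest count of a member was 30 (*Fxyd5* in OM HS14 replicate 10), where counting error alone is large. Matches of members to RefSeq promoter windows (GRCr8) were made by symbol, 4 of 6. Some genes of the pump family and regulation lists are counted but not reported here by name, and results that rest on them are left out.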

Additional observations from a re-analysis of the deposited data

Results flagged for a closer look

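Over the 36 combinations of a member and a group, 1 library stood far from the other 4 of its group by the gap between it and its neighbour relative to the group's range (Dixon's critical value 0.71 on log2 CPM). It was *Fxyd2* in OM HS14 replicate 10, at 345.1 CPM against 1432 CPM in the next library and 2000 CPM in the highest, with a gap of 0.81 of the range. Chance marks about 1 in 20 independent groups, but the members share their libraries, so the count seen cannot be set against that rate. The same library had the lowest depth and a median log2 difference of −1.99 in genes under 500 bases, and the part of these in the value of *Fxyd2* was not tested. For the difference between the tissues in the change at HS21, edgeR and DESeq2 called 0 members and limma voom with quality weights called 2, *Atp1b2* and *Atp1b3* (adjusted *P* = 0.0283 and 0.0319).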

How the results depend on the processing

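The number of members called was the same under every alternative for Cx HS14, OM HS14 and OM HS21 against HS14. For Cx HS21 against LS, where 3 were called, total count scaling gave 5, DESeq2 and upper quartile scaling 4 and a single fit of all 30 libraries 1, and fits without 1 library gave 2 to 5. Over all genes, total counts called 42.3%, DESeq2 41.1% and upper quartile scaling 39.1% in Cx at HS21, against 39.4% in the main fit. Total count scaling shifted the median log2 ratio of all genes by 0.13 there, by 0.11 for Cx HS21 against HS14, by 0.24 between the tissues and by −0.10 in the interaction. For Cx HS21 against HS14, where 1 was called, the fit of all 30 libraries gave 0 and fits without 1 library 0 to 1. For the OM against Cx on LS, where 3 were called, limma voom and total counts gave 4, the fit of all 30 libraries 2 and the fits without 1 library 2 to 4. Over all genes there, limma voom called 54.9%, total counts 51.7% and the fit of all 30 libraries 37.1%, against 40.9% in the main fit. For OM HS21 against LS limma voom gave 1 in place of 0, and for the interaction it gave 2 in place of 0. With the replicate block the OM against Cx on LS gave 2, since *Fxyd2* was no longer called (0.29, adjusted *P* = 0.112), and the interaction gave 0. No label states a pairing by number, but the deviations of most libraries went with it, and the main fits between tissues did not use it. The correlation of deviations was over 0.1 in 10 of 15 same-numbered pairs (range −0.07 to 0.44), the 5 pairs of HS21 lay between 0.238 and 0.439, and 13 of 15 libraries correlated best with their own number. Of the members' log2 ratios under the alternatives, 830 kept their direction and their side of the threshold, 24 lost and 14 gained the call, and 26 that were not called changed sign. No called ratio turned. Over all genes, the percent called under alternatives that moved it by more than 1.5 times was as follows. For Cx HS14 (2.33%) it was 6.49 with DESeq2, 4.44 with limma voom, 1.34 without a filter and 0.123 in the fit of all 30 libraries. For Cx HS21 (39.4%) that fit gave 14.7 and no filter 25.1, and for Cx HS21 against HS14 (16.2%) they gave 2.77 and 8.59, and limma voom 27.3. For OM HS14 (0.00694%) DESeq2 gave 0.756, limma voom 1.6, the fit of all 30 libraries 1.03, and leaving out OM LS replicate 2 and OM HS14 replicate 10 0.0414, while total counts, upper quartile and no filter gave 0. For OM HS21 (0.769%) DESeq2 gave 4.82, limma voom 16.4, the fit of all 30 libraries 3.27, total counts 0.302 and no filter 0.457, and for OM HS21 against HS14 (0%) DESeq2 gave 0.186. For the interaction (0.665%) DESeq2 gave 3.66, limma voom 19.3, the fit of all 30 libraries 0.174 and no filter 0.253. Without 1 library it ran from 0.593 (Cx LS 4 left out) to 3.3 (Cx HS14 10) for Cx HS14, from 34.7 to 39.8 for Cx HS21, from 7.07 (Cx HS14 8) to 24.2 (Cx HS14 10) for Cx HS21 against HS14, from 0 to 0.0275 for OM HS14, from 0.0611 (OM LS 3) to 1.19 (OM HS21 13) for OM HS21, from 0 to 0.00683 for OM HS21 against HS14, from 34.2 to 51.9 (OM LS 2) between the tissues and from 0.273 (OM LS 4) to 8.28 (OM LS 2) in the interaction. Total counts turned the split of raised to lowered genes from 3051 and 2794 to 5546 and 1842 between the tissues, from 2702 and 2936 to 4401 and 1653 in Cx at HS21, from 935 and 1395 to 2084 and 644 in Cx HS21 against HS14 (1120 and 1069 with upper quartile scaling) and from 68 and 33 to 57 and 54 in the interaction. Ratios between members on counts without division by length differ from those per length by the fixed ratio of the lengths. Depth limits *Fxyd5* and *Fxyd4* most, with as few as 30 and 52 counts in OM HS14 replicate 10.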
